A study of Mus musculus with 6 samples.

Results

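The genes described here were the 3 PGC-1 coactivators (Ppargc1a, Ppargc1b and Pprc1), the 3 peroxisome proliferator-activated receptors (Ppara, Ppard and Pparg) and 3 of their partner transcription factors (Nrf1, Gabpa and Esrra). They were taken by gene symbol and made up 9 of the 54532 genes in the deposited table. The PGC-1 proteins bind no DNA themselves. They are recruited by transcription factors and bring in the enzymes that open chromatin and start transcription, and Ppargc1a is best known as the inducible driver of mitochondrial biogenesis and fatty acid oxidation. The PPARs are nuclear receptors for fatty acids, which pair with retinoid X receptors and switch on genes of lipid uptake, storage and oxidation. Nuclear respiratory factor 1 (Nrf1), the DNA-binding subunit of nuclear respiratory factor 2 (Gabpa) and estrogen-related receptor alpha (Esrra) carry the PGC-1 proteins to genes of the respiratory chain and of mitochondrial DNA expression. In vascular smooth muscle, PPARG is known for its part in vessel tone and in restraining inflammation.

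The data were 6 RNA-seq libraries of cultured mouse vascular smooth muscle cells, 3 labelled Ad-Con and 3 labelled Ad-PDK4. Ad-Con cells, labelled as wild type, had received an adenoviral vector with a control plasmid. Ad-PDK4 cells had received one with an overexpression plasmid for pyruvate dehydrogenase kinase 4, the mitochondrial enzyme that switches off pyruvate dehydrogenase and so spares glucose carbon from oxidation. Per the study, the cells were isolated from mouse abdominal aorta, both groups were afterwards given angiotensin II, and the replicates were biological. The labels do not mention angiotensin II or which promoter drove the vector. The angiotensin II receptor genes Agtr1a and Agtr1b had at most 3 reads in any library, and Agtr2 had 0. Whether the cells responded to angiotensin II was not tested. The comparison addressed how raised PDK4 alters the expression programme of these cells.

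Several measurements bear on the labels. Each library held between 17588942 and 21861872 reads on genes. Pdk4 itself went against its label, with 7.48 ± 0.162 FPKM (SD, n = 3) under Ad-PDK4 and 10 ± 0.469 under Ad-Con (log2 fold change -0.42, adjusted p = 1.1e-03). FPKM counts the fragments of a gene per kilobase of its length, scaled to the size of the library. Whether a vector transcript would be counted under the mouse gene was not stated, and whether the labels of the groups were exchanged was not tested. The groups are called by their labels, and every direction below is that of the labels. Of 9 contractile smooth muscle genes, 3 had a mean of at least 0.5 FPKM (Acta2, Smtn and Lmod1), and Myh11, a defining marker of the lineage, had at most 10 reads in any library. The summed level of the 9 genes was 87.8 to 89.4 FPKM in Ad-Con and 43.3 to 48.2 in Ad-PDK4, and Acta2, the smooth muscle actin, accounted for most of it (78 ± 0.95 and 36.2 ± 2.4 FPKM, log2 fold change -1.11, adjusted p = 5.3e-06). The list had no common direction. Smtn (log2 fold change 0.02, adjusted p = 0.84) and Lmod1 (-0.29, adjusted p = 0.36) did not pass the test. Under the filter, Mylk, Cnn1 and Des were lower in Ad-PDK4 without overlap, while Tagln, Myh11 and Myocd overlapped between the groups. The summed level of 6 macrophage genes was 13.3 to 16.4 FPKM in Ad-Con and 3.68 to 5.5 in Ad-PDK4. Cd68 was the only one of them past the filter and made up nearly all of that sum, and Ptprc, Itgam and Tyrobp had 0 reads. Csf1r went the other way, with 11, 23 and 35 reads in Ad-Con and 56, 62 and 61 in Ad-PDK4. The 4 fibroblast genes summed to 1120 to 1200 FPKM in Ad-Con and 589 to 657 in Ad-PDK4, but had no common direction. Col1a1, which carries most of the sum, and Lum were lower (log2 fold changes -1.28 and -1.16), Dcn was higher (0.83, adjusted p = 4.0e-04) and Pdgfra did not pass the test (-0.05). The 5 endothelial genes summed to 0.617 to 0.798 FPKM in Ad-Con and 0.885 to 1.18 in Ad-PDK4. Kdr, the only one past the filter, made up most of both sums and did not pass the test (log2 fold change 0.68, adjusted p = 0.065). The others overlapped between the groups, with lower means in Ad-PDK4 for Pecam1 and Vwf and higher means for Cdh5 and Tek. The 6 adipocyte genes had 3 reads or fewer in every library, with Adipoq, Cidec and Lep at 0. In bulk libraries fewer cells of a type and less RNA per cell cannot be told apart, and the part these differences play in the results below was not tested.

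Of the 9 genes, 4 differed between the groups at an adjusted p below 0.05 (limma, Benjamini-Hochberg). Pprc1 and Ppard were higher in the libraries labelled Ad-PDK4, and Ppargc1a and Pparg were lower. Ppara, Nrf1, Gabpa and Esrra did not pass the test, and Ppargc1b lay under the filter of a mean of 0.5 FPKM. Across all 13423 genes tested, 21.8% were called higher and 20.8% lower, so 2 calls in each direction among 8 tested genes were near the background. None of the 4 calls reached a 2-fold change on the tested scale, a size passed by 3.95% of all tested genes upward and by 2.68% downward. The groups did not overlap for these same 4 genes, against 54.3% of all tested genes. The median log2 fold change of the 8 genes was -0.01, and that of all tested genes -0.003. Within the PGC-1 and the PPAR families the called members moved in opposite directions.

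**Figure D1:**
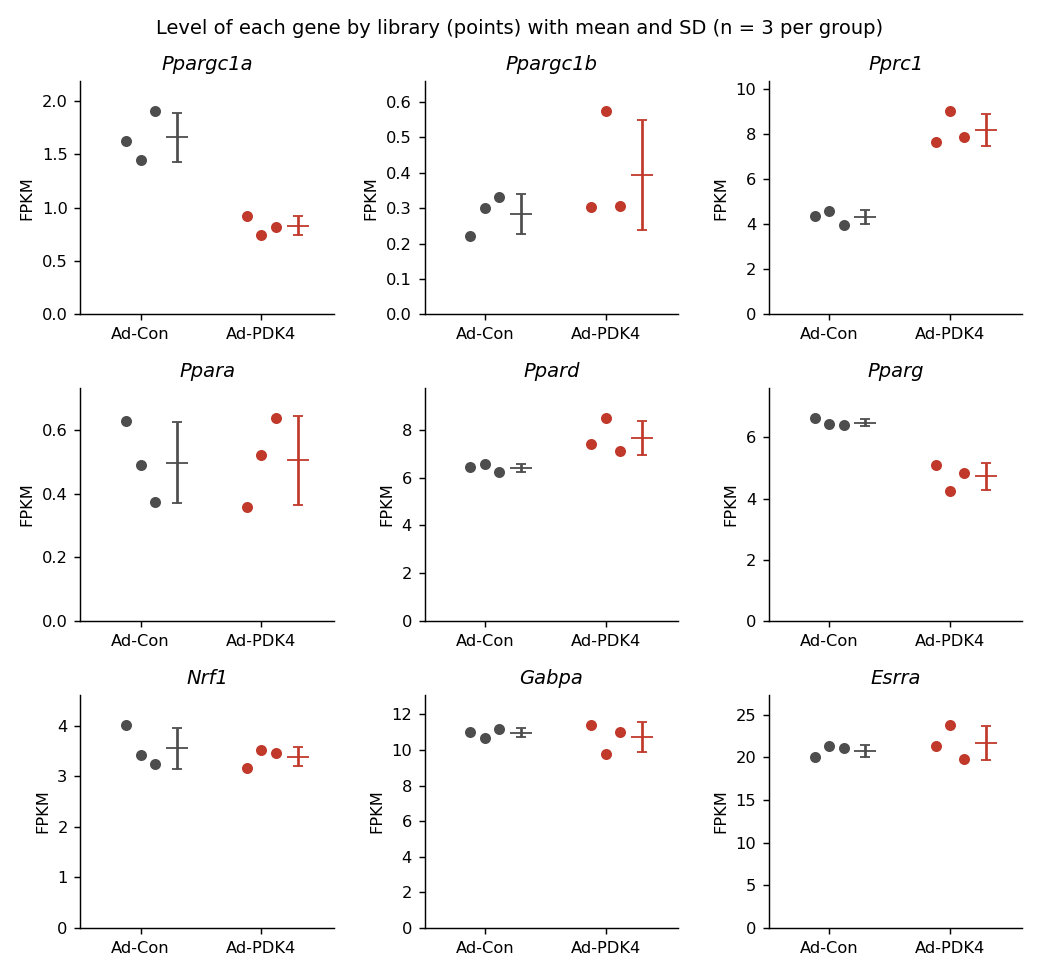
Level of each of the 9 genes in FPKM, with 1 point per library, and the mean and SD of the 3 libraries of each group beside them. Each panel has its own axis from 0. The 2 groups separate for Ppargc1a, Pprc1, Ppard and Pparg and overlap for the other genes.

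The PGC-1 coactivators gave the largest differences of the set, in opposite directions. Ppargc1a (ENSMUSG00000029167, minus strand of chromosome 5, bases 51454250 to 51567726) encodes PGC-1 alpha. Its level was 1.62, 1.45 and 1.90 FPKM in the Ad-Con libraries 1 to 3, and 0.925, 0.745 and 0.817 FPKM in the Ad-PDK4 libraries 1 to 3. These values rest on 217, 168 and 227 reads in Ad-Con and on 111, 86 and 119 in Ad-PDK4. All 3 Ad-PDK4 libraries lay below all 3 Ad-Con libraries. The means were 1.66 ± 0.227 and 0.829 ± 0.0905 FPKM (SD, n = 3), a ratio of 0.501. The log2 fold change was -0.91 (SE 0.16, 95% confidence interval -1.29 to -0.53, adjusted p = 3.0e-03). In absolute size this was larger than the change of 90.6% of all tested genes. Ppargc1a was lowly expressed, with only 14% of tested genes at a lower mean level, and the pseudocount of 0.1 FPKM weighed on its fold change.

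Pprc1 (ENSMUSG00000055491, plus strand of chromosome 19, bases 46044886 to 46072915) encodes the PGC-1-related coactivator PRC, a serum-responsive member of the family that works with nuclear respiratory factors in growing cells. Its level was 4.39, 4.58 and 3.99 FPKM in the Ad-Con libraries and 7.68, 9.02 and 7.90 FPKM in the Ad-PDK4 libraries. The reads were 672, 604 and 544 in Ad-Con and 1050, 1187 and 1311 in Ad-PDK4. Every Ad-PDK4 library lay above every Ad-Con library, with a wide gap between them. The means were 4.32 ± 0.299 and 8.2 ± 0.723 FPKM (SD, n = 3), a ratio of 1.9. The log2 fold change was 0.91 (SE 0.09, 95% confidence interval 0.70 to 1.11, adjusted p = 1.3e-04), with 90.5% of tested genes changing less in absolute size. The exons of Pprc1 overlap those of Ldb1 on the opposite strand over 177 bases, which is 2.82% of its exonic length. Whether counting used strand was not stated. Ldb1 itself was lower in Ad-PDK4 (log2 fold change -0.29, adjusted p = 0.013).

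Ppargc1b (ENSMUSG00000033871, chromosome 18), which encodes PGC-1 beta, a coactivator of mitochondrial and lipogenic genes, was close to the detection limit. It had 18, 21 and 24 reads in the Ad-Con libraries and 22, 40 and 27 in the Ad-PDK4 libraries, or 0.222, 0.3 and 0.332 FPKM and 0.303, 0.573 and 0.306 FPKM. The groups overlapped, and Ad-PDK4 library 2 stood above the rest. In a fit without the filter the log2 fold change was 0.33 with a 95% confidence interval of -0.38 to 1.04 (adjusted p = 0.51), so neither a modest fall nor a doubling of Ppargc1b was outside its range.

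The make-up of the coactivator family therefore differed between the groups. Pprc1 made up 69 ± 4.31% of the summed PGC-1 FPKM in Ad-Con and 87 ± 0.7% in Ad-PDK4 (SD, n = 3). Ppargc1a made up 26.5 ± 3.82% and 8.89 ± 1.6%. Ppargc1b stayed a small share, at 4.54 ± 0.901% and 4.11 ± 1.24%. The ratio of Pprc1 to Ppargc1a FPKM was 2.72, 3.15 and 2.1 in the Ad-Con libraries and 8.3, 12.1 and 9.66 in the Ad-PDK4 libraries, without overlap. The summed level of the 3 coactivators was 6.26 ± 0.0608 FPKM in Ad-Con and 9.41 ± 0.773 FPKM in Ad-PDK4. These shares restate the levels above and were not tested on their own.

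**Figure D2:**
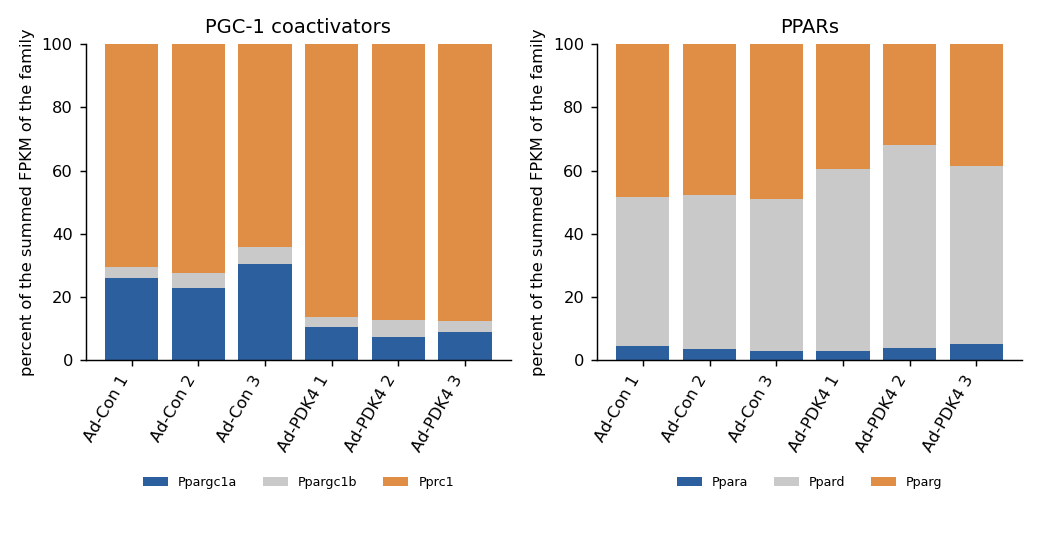
Share of each gene in the summed FPKM of its family, in percent, for the PGC-1 coactivators and the PPARs, with 1 stacked bar per library. Ppargc1a makes up 22.9% or more of its family in each Ad-Con library and 10.4% or less in each Ad-PDK4 library, and Ppard takes a larger share than Pparg in each Ad-PDK4 library.

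The promoter sequences of the pair that moved in opposite directions are shown because Ppargc1a and Pprc1 belong to one family but differ before their RefSeq starts. Both are the 250 bases before the RefSeq transcription start (GRCm38.p6), written 5′ to 3′ on the strand of the gene. In the Ppargc1a window, at chr5:51567726-51567975 on the minus strand, capitals mark CGTCA, which on the opposite strand reads TGACG, the core of the cyclic AMP response element (CRE), the site bound by CREB. In the Pprc1 window, at chr19:46056289-46056538 on the plus strand, capitals mark ACTACAATT, a core of the element bound by ZNF143, a factor of housekeeping promoters. That motif was looked for after the sequence had been seen.
Ppargc1a: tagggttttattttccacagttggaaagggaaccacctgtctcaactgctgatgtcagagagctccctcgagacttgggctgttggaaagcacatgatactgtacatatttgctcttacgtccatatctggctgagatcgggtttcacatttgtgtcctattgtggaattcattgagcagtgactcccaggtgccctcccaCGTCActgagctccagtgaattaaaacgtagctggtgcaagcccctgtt
Pprc1: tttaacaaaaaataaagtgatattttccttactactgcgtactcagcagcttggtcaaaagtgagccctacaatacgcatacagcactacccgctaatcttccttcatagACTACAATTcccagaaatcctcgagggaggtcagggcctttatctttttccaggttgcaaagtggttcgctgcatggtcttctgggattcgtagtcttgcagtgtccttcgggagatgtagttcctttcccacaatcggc

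The 2 windows differed in composition. The Ppargc1a window had a GC content of 48% and a ratio of observed to expected CpG of 0.347, and the Pprc1 window had 45.2% and 0.633. Over all 32851 windows of this length the medians were 52.4% and 0.373. The Ppargc1a match lay 49 to 45 bases before the start. TGACG, counted on both strands here and below, was present in 17.8% of all windows, and the full CRE TGACGTCA, which contains it, in 1.55%. The Pprc1 match lay 140 to 132 bases before the start, and ACTACAATT was present in 0.365% of all windows. The RefSeq start of Pprc1 lies inside the longer gene of the deposited table. That of Ppargc1a lies at the outer 5′ end of its gene, which has 5 annotated transcripts. Sequence before any other start of these genes was not searched, and a match describes letters only, not binding.

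RefSeq windows were at hand for 8 of the 9 genes, 11 windows in all, since Nrf1 and Pparg have more than one start. The NRF-1 motif GCATGCGC, found in 2.26% of all windows, was present before Esrra (34 to 27 bases before the start) and before Ppara. The ETS motif CCGGAAG that GABP reads, found in 6.91% of all windows, was present before Gabpa itself, 93 to 87 bases upstream. The GC box GGGCGG, found in 32.7% of all windows, was present in 6 of the 11 windows, those of Esrra, Ppara, Ppard, 1 start of Nrf1 and 2 starts of Pparg. TGACG was present before Ppara as well as Ppargc1a. The full CRE, the ERR motif AAGGTCA (4.08% of all windows) and the E-box CACGTG (6.02%) had no match in any of the 11 windows.

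Among the PPARs, Pparg and Ppard moved apart and Ppara was barely detected. Pparg (ENSMUSG00000000440, chromosome 6, bases 115360951 to 115490399) encodes the receptor for thiazolidinediones and is the master factor of adipocytes. Its level was 6.62, 6.42 and 6.39 FPKM in the Ad-Con libraries and 5.08, 4.24 and 4.84 FPKM in the Ad-PDK4 libraries. The Ad-Con libraries lay close together, and all Ad-PDK4 libraries lay below them. The means were 6.48 ± 0.126 and 4.72 ± 0.435 FPKM (SD, n = 3), a ratio of 0.729, with a log2 fold change of -0.45 (SE 0.08, 95% confidence interval -0.64 to -0.26, adjusted p = 3.3e-03). Of all tested genes, 72% changed less in absolute size. The adipocyte genes, which PPARG controls in fat cells, were at or near 0 in both groups.

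Ppard (ENSMUSG00000002250, chromosome 17, bases 28232700 to 28301474), the broadly expressed receptor linked to fatty acid oxidation in muscle, had 6.45, 6.55 and 6.23 FPKM in the Ad-Con libraries and 7.40, 8.48 and 7.12 FPKM in the Ad-PDK4 libraries. The groups did not overlap, but Ad-PDK4 library 2 lay well above the other libraries of its group. The means were 6.41 ± 0.162 and 7.67 ± 0.717 FPKM (SD, n = 3), a ratio of 1.2. The log2 fold change was 0.25 (SE 0.08, 95% confidence interval 0.07 to 0.43, adjusted p = 0.035). This was a middling change, as 49.8% of tested genes changed less, and the call was the least stable of the 4. It was lost in 8 of 17 alternative analyses (other scalings, filters, pseudocounts and models, or 1 library left out), among them those without Ad-Con library 1, 2 or 3 or without Ad-PDK4 library 1 or 2 (adjusted p between 9.5e-03 and 0.1 over the alternatives, log2 fold change between 0.18 and 0.30).

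Ppara (ENSMUSG00000022383, chromosome 15, bases 85734983 to 85802819), the receptor of liver and heart that drives fatty acid oxidation, had 49, 33 and 26 reads in the Ad-Con libraries and 25, 35 and 54 in the Ad-PDK4 libraries. That is 0.628, 0.490 and 0.374 FPKM and 0.358, 0.521 and 0.637 FPKM, and the groups overlapped over almost their whole range. The log2 fold change was 0.02 (SE 0.33, 95% confidence interval -0.74 to 0.77, adjusted p = 0.98). Its mean of 0.501 FPKM was just above the filter, and at this depth a change of moderate size in either direction was not detectable.

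The sum of the 3 PPARs was 13.4 ± 0.361 FPKM in Ad-Con and 12.9 ± 0.306 FPKM in Ad-PDK4, while the shares differed. Ppard made up 47.9 ± 0.755% of the sum in Ad-Con and 59.4 ± 4.11% in Ad-PDK4, and Pparg made up 48.4 ± 0.755% and 36.7 ± 4.09% (SD, n = 3). The ratio of Ppard to Pparg FPKM was 0.975, 1.02 and 0.976 in the Ad-Con libraries and 1.46, 2 and 1.47 in the Ad-PDK4 libraries. The 2 receptors were thus level in every Ad-Con library, and Ppard led in every Ad-PDK4 library.

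The 3 partner factors were detected well and did not pass the test. Nrf1 (ENSMUSG00000058440, chromosome 6, bases 30047988 to 30153458) had 4.01, 3.41 and 3.24 FPKM in Ad-Con and 3.17, 3.52 and 3.46 FPKM in Ad-PDK4 (log2 fold change -0.06, SE 0.10, 95% confidence interval -0.30 to 0.17, adjusted p = 0.65). Gabpa (ENSMUSG00000008976, chromosome 16, bases 84834925 to 84863779) had 11.0, 10.7 and 11.2 FPKM in Ad-Con and 11.4, 9.79 and 11.0 FPKM in Ad-PDK4 (log2 fold change -0.04, SE 0.07, 95% confidence interval -0.20 to 0.13, adjusted p = 0.71). Esrra (ENSMUSG00000024955, chromosome 19, bases 6910977 to 6921813) had 20, 21.3 and 21.1 FPKM in Ad-Con and 21.4, 23.8 and 19.8 FPKM in Ad-PDK4 (log2 fold change 0.06, SE 0.07, 95% confidence interval -0.11 to 0.23, adjusted p = 0.57). For each of the 3 genes the groups overlapped, and the intervals leave room for changes smaller than the fall of Pparg. Gabpa shares 397 exonic bases (6.98% of its exonic length) with Atp5j on the opposite strand, and Esrra shares 3.74% with Mir6990 and Trmt112. Atp5j did not pass the test (log2 fold change -0.12, adjusted p = 0.23), and Trmt112 was called higher in Ad-PDK4 (0.18, adjusted p = 0.042).

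**Figure D3:**
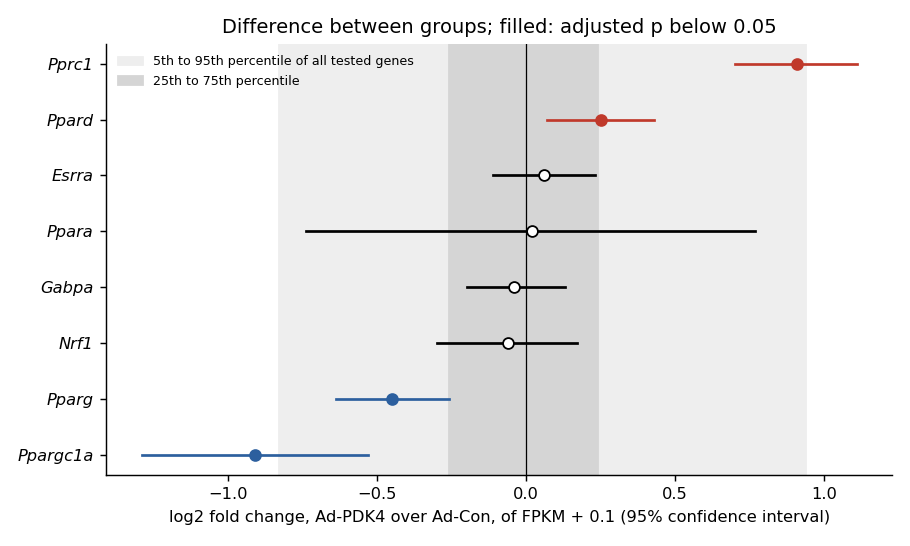
Difference between the groups for the 8 tested genes, as the log2 fold change of FPKM + 0.1 (Ad-PDK4 over Ad-Con) with its 95% confidence interval. Filled points passed an adjusted p of 0.05, and the shaded bands span the 25th to 75th and the 5th to 95th percentiles of all tested genes. Ppargc1a and Pprc1 lie near the outer edges of the wider band, which runs from -0.83 to 0.94.

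Ordered by FPKM, which is per length, Esrra was the most abundant of the 9 genes in both groups and Gabpa came next. In Ad-Con these were followed by Pparg and Ppard, whose ranges overlapped, then Pprc1 and Nrf1, whose ranges also overlapped, then Ppargc1a, Ppara and Ppargc1b, each apart from its neighbour. In Ad-PDK4 the places after Gabpa went to Pprc1 and Ppard, which overlapped, then Pparg, Nrf1, Ppargc1a and, overlapping, Ppara and Ppargc1b. Pprc1 thus moved up past Pparg and into the range of Ppard. These levels depend on the gene lengths used by the authors, which for Pprc1 (7516 bases) and Esrra (2539 bases) differ from the exonic lengths in GENCODE M21 (6284 and 4387 bases).

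The 5 genes whose level was most like that of Ppargc1a over the 6 libraries were Zfp821, Gas2l3, Atpif1, Tmem206 and Birc5 (Pearson r of log2 values between 0.9971 and 0.9989). Since the 6 libraries form 2 groups, any gene that fell in step with the group label scores highly, and 686 of 13422 compared genes had an r of at least 0.95.

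The genes that act on, with and after these factors were followed through 6 pathway lists of 130 genes, of which 108 were tested. Among them 20 (18.5%) were called higher in Ad-PDK4 and 29 (26.9%) lower, against 21.8% and 20.8% of all tested genes. The median log2 fold change was 0.01. The PPAR target genes were the only list whose median lay outside the 25th to 75th percentile of all tested genes, which ran from -0.26 to 0.24. The lists were written from general knowledge, but with earlier results of these data known. Their shares are therefore only described beside the background shares and are no independent test.

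Of 42 PPAR target genes 28 were tested. In Ad-PDK4 16 of these were lower (57.1%, against 20.8% of all tested genes) and 2 were higher (7.14%, against 21.8%). The other 10 did not pass the test, and the median log2 fold change was -0.29. The largest fall was that of Slc27a1, a fatty acid transport protein, at 8.57, 8.63 and 8.84 FPKM in Ad-Con and 4.71, 4.83 and 4.71 FPKM in Ad-PDK4 (log2 fold change -0.86, adjusted p = 2.2e-05). Fabp3, which binds fatty acids in the cytosol of muscle, followed with 27.1, 32 and 27.2 FPKM against 18, 17.3 and 17.3 FPKM (log2 fold change -0.71, adjusted p = 1.9e-04). In both genes the libraries of each group lay close together and the groups were far apart.

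The other genes of this list that were lower are named after their values had been seen. Among enzymes of mitochondrial fatty acid oxidation these were the dehydrogenases Acadl (-0.51) and Acadm (-0.52), the carnitine transferase Cpt2 (-0.44), the thiolase Acaa2 (-0.34), the trifunctional protein subunit Hadha (-0.25), the auxiliary enzymes Ech1 (-0.51) and Decr1 (-0.19), and Etfdh (-0.32), which passes electrons on to ubiquinone. Acsl1 (-0.34), which activates fatty acids, the thioesterase Acot1 (-0.60), the lipid droplet coat gene Plin4 (-0.63), the lipoprotein receptor Vldlr (-0.48) and the peroxisomal catalase Cat (-0.67) were lower as well, all values being log2 fold changes. Pdk4, itself a PPAR target, is one of the 16. Several enzymes of the same pathways did not pass the test, among them Cpt1a (0.03), Hadhb (-0.07), Acadvl (-0.18) and the carnitine carrier Slc25a20 (-0.26).

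The 2 genes called higher encode secreted regulators of triglyceride uptake. Angptl4, an inhibitor of lipoprotein lipase, had 8.24, 8.7 and 8.09 FPKM in Ad-Con and 14.1, 11.8 and 14 FPKM in Ad-PDK4 (log2 fold change 0.66, adjusted p = 4.7e-04). Lpl, the lipase itself, was near the filter with 0.511, 0.44 and 0.49 FPKM against 0.787, 0.971 and 1.12 FPKM (log2 fold change 0.86, adjusted p = 0.018), and its call was lost without Ad-PDK4 library 2 or 3. Both genes separated the groups, in the direction opposite to the fatty acid oxidation genes that were lower.

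The filter set aside 14 of the 42 PPAR targets, and 6 of these had 3 reads or fewer in every library. Ucp2, an inner membrane carrier, had 71, 72 and 64 reads in Ad-Con and 11, 10 and 11 in Ad-PDK4 (log2 fold change -1.81, adjusted p = 2.4e-03 in the fit without a filter). It was thus low in all libraries and lower in Ad-PDK4. The hormone gene Fgf21 had 0 reads in all Ad-Con libraries and 4, 3 and 4 in Ad-PDK4, too few for a fold change.

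**Figure D4:**
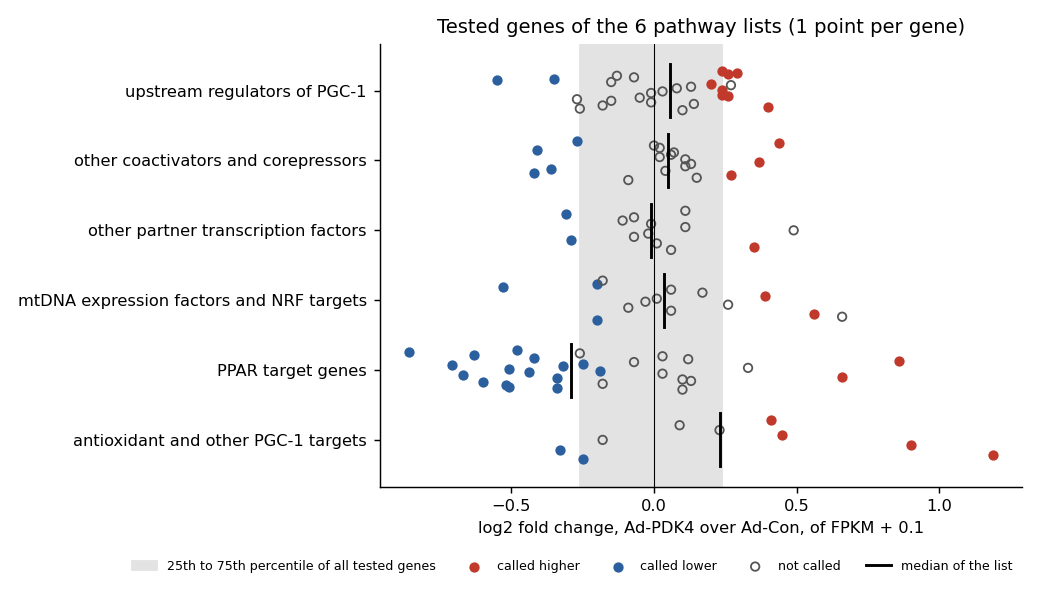
Log2 fold change (Ad-PDK4 over Ad-Con, of FPKM + 0.1) of every tested gene in the 6 pathway lists, with 1 point per gene, filled where the adjusted p was below 0.05. Black bars are list medians and the grey band spans the 25th to 75th percentile of all tested genes. The median of the PPAR target genes, at -0.29, lies outside the band, and the other 5 medians lie between -0.01 and 0.23.

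The list of antioxidant and other PGC-1 targets held calls in both directions. Of 9 tested genes 4 were higher (44.4%, against 21.8% of all tested genes), 2 were lower (22.2%, against 20.8%) and 3 did not pass. The median log2 fold change of 0.23 lay inside the 25th to 75th percentile of all tested genes. Prdx5, a mitochondrial and peroxisomal peroxiredoxin, had 73.6, 79.4 and 72.1 FPKM in Ad-Con and 140, 142 and 138 FPKM in Ad-PDK4 (log2 fold change 0.90, adjusted p = 7.6e-06). Perm1, a muscle regulator induced by PGC-1 and estrogen-related receptors, had 57, 22 and 33 reads against 85, 86 and 104 and was the only gene of all 6 lists past 2-fold (log2 fold change 1.19, adjusted p = 9.2e-03). The mitochondrial superoxide dismutase Sod2 (0.45, adjusted p = 2.2e-03) and the angiogenic factor Vegfa (0.41, adjusted p = 3.4e-04) also rose. Prdx3, the mitochondrial peroxiredoxin, fell by 0.33 on the log2 scale (adjusted p = 1.3e-03) and Gpx1, a glutathione peroxidase, by 0.25 (adjusted p = 5.1e-03).

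The factors of mitochondrial DNA expression and the classical targets of nuclear respiratory factors showed no common direction. Of 14 genes, all tested, 2 were higher (14.3%, against 21.8% of all tested genes) and 3 were lower (21.4%, against 20.8%). The other 9 did not pass. Tfb2m, the mitochondrial transcription factor that melts the promoter, had 12.5, 11.7 and 11.8 FPKM in Ad-Con and 7.92, 8.54 and 8.4 FPKM in Ad-PDK4 (log2 fold change -0.53, adjusted p = 3.1e-04). Tfam, which packages and transcribes mitochondrial DNA, did not pass (log2 fold change 0.17, adjusted p = 0.14). The transcription elongation factor Tefm was higher (0.39, adjusted p = 0.01), as was Cycs, the cytochrome c gene (0.56, adjusted p = 4.7e-04). Tomm20, an import receptor, was lower (-0.20, adjusted p = 0.018), a call that was lost in 3 alternatives.

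Of 28 genes upstream of PGC-1, 26 were tested. In Ad-PDK4 8 were higher (30.8%, against 21.8% of all tested genes) and 2 lower (7.69%, against 20.8%). The median log2 fold change was 0.06. The higher count depended on single libraries. With 1 library left out, 4 to 7 of these genes were called higher and 2 or 3 lower. Calls of higher genes over all tested genes then fell as well, from 2928 to between 2324 and 2700. Creb1 was higher (log2 fold change 0.40, adjusted p = 6.8e-03). It activates Ppargc1a through a CRE, and the window searched here held no full CRE. Twist1, which dampens PGC-1 alpha activity, was higher as well (0.29, adjusted p = 5.2e-03). The AMP-activated kinase subunits Prkag1 (-0.55, adjusted p = 2.3e-03) and Prkag2 (-0.35, adjusted p = 2.9e-03) were lower. The catalytic subunit Prkaa1 (0.13, adjusted p = 0.22) and the deacetylase Sirt1 (-0.13, adjusted p = 0.44), which modify PGC-1 alpha protein, did not pass.

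Of 19 other coactivators and corepressors, 18 were tested. In Ad-PDK4 3 were higher (16.7%, against 21.8% of all tested genes) and 4 lower (22.2%, against 20.8%). The median log2 fold change was 0.05. Tbl1x, a subunit of the corepressor exchange complex (0.44, adjusted p = 3.7e-04), and the steroid receptor coactivator Ncoa2 (0.37, adjusted p = 2.9e-03) were higher. The deacetylase of the NCoR complex, Hdac3 (-0.42, adjusted p = 4.6e-04), and the corepressor Nrip1 (-0.41, adjusted p = 0.022, lost in 3 alternatives) were lower.

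Of 17 other partner transcription factors, 13 were tested. In Ad-PDK4 1 was higher (7.69%, against 21.8% of all tested genes) and 2 lower (15.4%, against 20.8%). The median log2 fold change was -0.01. Nr1d1, the clock receptor REV-ERB alpha, was lower (-0.29, adjusted p = 5.5e-03). Gabpb1, the activating partner of GABPA (0.35, adjusted p = 0.042), and the thyroid hormone receptor Thrb (-0.31, adjusted p = 0.041) were called at the margin, and their calls were lost in 7 and in 9 of 16 alternatives. The retinoid X receptors Rxra (0.11, adjusted p = 0.28) and Rxrb (-0.01, adjusted p = 0.9), the obligate partners of the PPARs, did not pass, and Rxrg had 0 reads.

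The calls of Ppargc1a, Pprc1 and Pparg were kept in every alternative analysis in which they were tested. The log2 fold change of Ppargc1a ran from -1 to -0.54, with adjusted p between 2.6e-05 and 0.016, and the value nearest 0 came with a pseudocount of 1 FPKM. That of Pprc1 ran from 0.79 to 0.96 and that of Pparg from -0.51 to -0.38. For Ppara, Nrf1, Gabpa and Esrra the estimate lay on either side of 0, depending on the alternative.

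**Figure D5:**
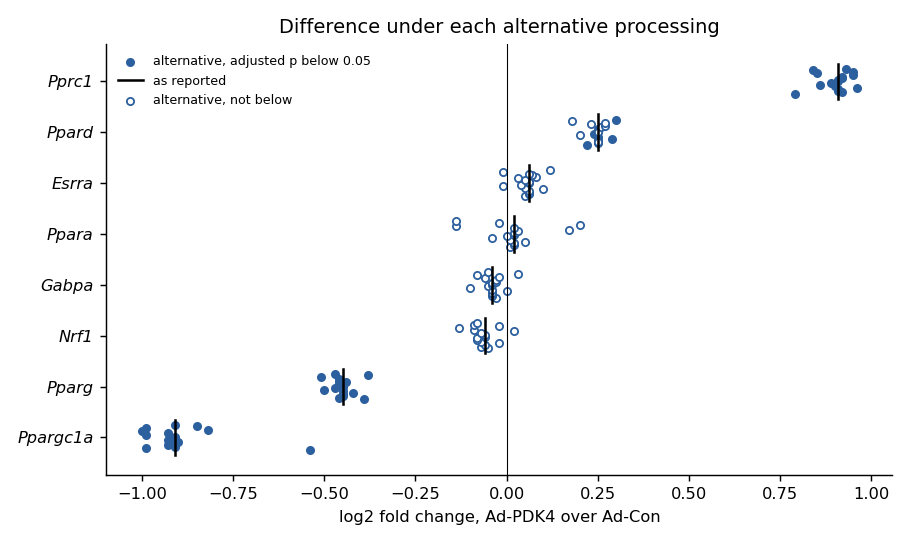
Log2 fold change (Ad-PDK4 over Ad-Con) of the 8 tested genes under each alternative analysis, with 1 point per alternative and a black bar for the reported value. Filled points passed an adjusted p of 0.05. Ppargc1a, Pprc1 and Pparg stay filled throughout, Ppard is filled in 9 of 17 alternatives, and the other 4 genes straddle 0.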

How the data were processed

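The deposited table gave FPKM per gene and library, which the authors computed without pooling replicates, with symbols, identifiers, gene lengths and coordinates. The submitters' processing notes name fastp, HISAT2 2.0.5, featureCounts 1.5.0-p3, DESeq2 1.20.0 and the build GRCm39. The coordinates in the table match GRCm38 (GENCODE M21, 98.3% of matched genes and all 9 genes described), so they are given on that build. Library preparation is given as SMARTER mRNA-Seq in the labels and as NEBNext Ultra in the methods. FPKM times gene length gave whole reads for 100% of the non-zero values (tolerance 0.01 reads), here called reads although each stands for a fragment. Depth was 17588942 to 21861872 reads per library, and 1 read in a gene of 1 kb was worth 0.0453 to 0.0571 FPKM. Libraries of the same group differed by more than sampling noise, so each was counted once.

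Groups came from the treatment labels and replicate numbers from the titles. Genes with a mean of at least 0.5 FPKM over the 6 libraries (13423) were compared between the groups by limma (3.58.1, under R 4.3.3), on the scale of log2(FPKM + 0.1), with trend and robust moderation and no covariates, adjusting by Benjamini-Hochberg over all of them. Calls required an adjusted p below 0.05. Fold changes on this scale understate the change of low genes, and ratios of means carry no pseudocount. The p-values set the difference between the groups against the spread within them, moderated over all tested genes, and cover these 6 libraries only. In simulated reads the procedure recovered 93.2% of 2-fold changes, with 4.66% of calls false. The simulation changed few genes and gave every gene the same extra spread between replicates. In the data 42.7% of tested genes were called, so these rates, pooled over all expression levels, may not hold for them or for low genes.

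Genes named were the 9 genes, Pdk4 and Acta2 as checks, the 2 largest rises and falls among called genes of each pathway list, the 5 genes most correlated with Ppargc1a, and genes under the filter with their reads. Others were named after their values had been seen. The genes, lists and motifs were chosen with earlier results of these data known. The results were recomputed with other pseudocounts (1 and 0.01), other filters (none, or a mean of 5 FPKM), other scalings (TPM, median of ratios, quantile, totals without the mitochondrial chromosome), plain moderation, a block for the replicate number, limma-voom run on the recovered reads, and each library left out in turn. Promoter windows came from RefSeq (GRCm38.p6).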

Additional observations from a re-analysis of the deposited data

How the results depend on the processing

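Of the 4 calls among the 8 tested genes, those of Ppargc1a, Pprc1 and Pparg held in every alternative that tested them, and only that of Ppard was lost, in 8 of 17. Leaving out 1 library moved the log2 fold change of Ppargc1a between -1 and -0.82, of Pprc1 between 0.84 and 0.95, of Ppard between 0.18 and 0.30 and of Pparg between -0.51 and -0.38. Ppargc1a was not tested at a minimum mean of 5 FPKM. Samples with the same replicate number did not deviate together (correlations -0.046, -0.0311 and -0.00129), so the numbers name samples only. With the number as a replicate block the same 4 genes were called, and 2759 genes were higher and 2626 lower against 2928 and 2798 without it. The alternatives were run for the 8 tested genes, Pdk4, Acta2 and the pathway genes named by rule, and no called gene among these changed direction. limma-voom on the recovered reads called 3221 genes higher and 3138 lower, and the same 4 genes among those described. TPM and quantile scaling moved the median of all genes to 0.037 and -0.035 on the log2 scale. Depth limits Ppargc1b and Ppara, which rested on at most 54 reads per library.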
